A study of Mus musculus with 5 samples.

Results

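The 10 genes described here encode the proteins that load, hold and empty the calcium store of muscle, the sarcoplasmic reticulum. They are the calcium pumps Atp2a1, Atp2a2 and Atp2a3, the pump inhibitors Sln and Pln, the calcium-binding store proteins Casq1 and Casq2, and the release channels Ryr1, Ryr2 and Ryr3. They were taken by symbol and are 10 of the 55357 genes listed. Every one of the 10 symbols was found.

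The tissue was the tibialis anterior, a mainly fast-fibred muscle of the lower hind leg, from female C57BL/6 mice aged 26 months. The frail group holds 2 mice whose frailty index was at or above 0.18, and the control group 3 mice of the same strain, sex and age whose index was under 0.18; no allele or agent is named for either group. Each mouse gave 1 library of 10x Genomics 3′ version 4 chemistry, in which unique molecular identifiers (UMIs) count captured RNA molecules at their 3′ ends. The labels describe both an enzymatic digestion to cells and a lysis with sorting of nuclei, and which of them was done is not clear from either, so the term barcode is kept below.

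In a muscle fibre, calcium released from the sarcoplasmic reticulum through ryanodine receptors starts contraction, and SERCA pumps return it to the store to end it. Calsequestrins hold calcium inside the store, and the small membrane proteins sarcolipin and phospholamban slow the pumps. Fast skeletal fibres are known for SERCA1, calsequestrin 1 and ryanodine receptor 1, whereas SERCA2, calsequestrin 2, phospholamban and ryanodine receptor 2 are the forms of the heart and, in part, of slow fibres and smooth muscle. SERCA3 is known from endothelium and blood cells.

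A barcode was retained if it held 200 or more genes and no more than 10% of its UMIs were mitochondrial, which left 9351 and 10517 in frail 1 and 2, against 8650, 9854 and 12088 in control 1 to 3, from libraries of 68170531 to 90942121 UMIs. The mitochondrial limit removed 17.2% of the barcodes of frail 1 and between 7.49% and 11.2% of those of the other libraries. Pairs of libraries shared 27 to 49 barcode sequences, at most 0.456% of the smaller library. Lineages were gated by genes outside the 10. Barcodes with at least 5% of their UMIs from Ckm and Acta1 were called myofibre (1436), and the rest were gated with at least 2 UMIs of Myh11 (smooth muscle, 2532), Rgs5 without Myh11 (pericyte, 1005), Cdh5 (endothelial, 6209), Pdgfra (fibro-adipogenic, 7122) or Pax7 (satellite, 336). These sets under the fibre gate also required no UMI of the other gate genes named, except that smooth muscle barcodes could hold Rgs5. The other 31820 barcodes fell in none of these sets, and some of them may hold a gate gene beside a stray UMI of another. Of the marker genes listed for each lineage, 9 of 9 for myofibres, 6 of 6 for smooth muscle, 5 of 5 for endothelium and 6 of 6 for satellite cells were highest in their own set, with 5 of 6 for fibro-adipogenic and 4 of 6 for pericyte barcodes, whose Notch3 and Cspg4 were higher in smooth muscle. The pericyte set also held markers of other cell types. Its summed pericyte markers were 1321 to 5660 CPM, beside 2519 to 8212 CPM of macrophage and 2452 to 9696 CPM of fibro-adipogenic markers, and the macrophage sum exceeded the pericyte sum in 4 of 5 libraries. Smooth muscle markers summed to 1120 to 4069 CPM there. The part of these other cell types in the pericyte values below was not tested. Levels are given as CPM, the UMIs of a gene scaled to a common total of UMIs for each set of barcodes in a library, and the number of libraries is 2 frail and 3 control throughout.

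Myofibre barcodes were unequally spread over the libraries, which bears on every level below. They numbered 9 and 74 in frail 1 and 2, against 321, 782 and 250 in control 1 to 3. As a share of retained barcodes this was 0.0962% and 0.704% in the frail libraries, against 3.71%, 7.94% and 2.07% in the controls. Both frail values lay under every control value, with no overlap of their 95% Wilson intervals (0.0506% to 0.183% and 0.561% to 0.882% in the frail libraries, 1.83% at the lowest in the controls). These intervals cover counting error over barcodes only and leave out the spread between mice. The means were 0.400% ± 0.429 in frail and 4.57% ± 3.03 in control libraries (SD, n = 2 and 3), and the exact two-sided permutation test gave p = 0.2, which is the smallest p that 2 against 3 libraries can give. The myofibre sum of frail 1 held 13127 UMIs and that of frail 2 held 163710, against 947881 to 3416854 in the controls. A value from frail 1 fibres therefore rests on very few molecules.

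Among the gated lineages, the 4 families were divided between the fibre and the vessel wall. Atp2a1, Sln, Casq1 and Ryr1 were fibre genes, while Atp2a2, Atp2a3, Pln, Casq2, Ryr2 and Ryr3 had their highest fitted level in smooth muscle, with Atp2a3 close to its endothelial level and Ryr3 close to its satellite level. Sums per library and lineage (30 sums) were fitted together by edgeR's quasi-likelihood test with the library as a block, and p-values were adjusted by Benjamini-Hochberg over 13633 genes. Between myofibre barcodes and the mean of the 5 other lineages, 65.0% of all genes tested were called, 28.3% higher and 36.6% lower, and 4 of the 10 genes were called, all higher. Between smooth muscle and the mean of the 4 other non-fibre lineages, 53.1% of all genes were called, 27.6% higher, and 9 of the 10 were called, 8 of them higher. The 8 include the fibre genes Sln and Casq1, so this count does not follow the division above, and the Sln call is taken up below. Myofibre barcodes exceeded smooth muscle by 5.47 for Sln and 7.59 for Casq1 on the log2 scale, where 62.2% of genes were called.

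**Figure D1:**
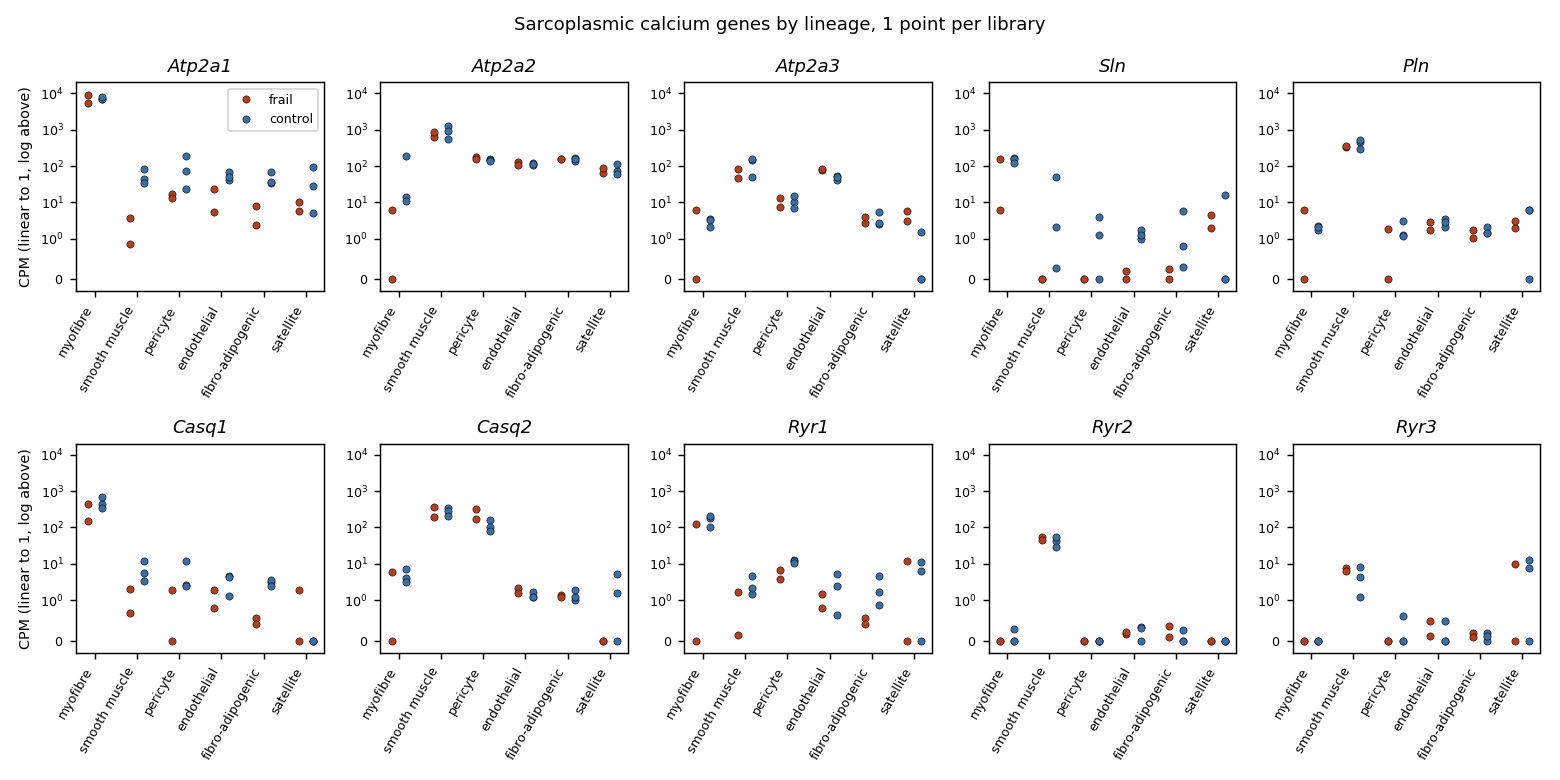
CPM of the 10 genes in 6 gated lineages, 1 point per library, on an axis that is linear from 0 to 1 and logarithmic above. Frail libraries (red) stand left of control libraries (blue). Atp2a1, Casq1 and Ryr1 peak in myofibre barcodes, where Atp2a1 lies between 5333 and 9211 CPM, and Pln and Ryr2 peak in smooth muscle barcodes.

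Among the pumps, Atp2a1 (ENSMUSG00000030730), which encodes SERCA1, lies on the minus strand of chromosome 7 at 126445858 to 126463108 (GENCODE vM21, GRCm38, as for all gene positions here). In myofibre barcodes it stood at 5333 and 9211 CPM in frail 1 and 2, against 6992, 6801 and 7747 CPM in control 1 to 3. The 2 frail values enclosed the 3 control values. Over the other lineages it was higher by 9.07 on the log2 scale (SE 0.27, adjusted p = 2.15e-25 by edgeR's quasi-likelihood test), and 8.36 to 9.34 over the alternatives run. Outside the fibre Atp2a1 was read beside the fibre transcripts of the same barcodes. For every 1000 UMIs of Ckm and Acta1 there were 76.2 to 94.5 of Atp2a1 in myofibre barcodes, 74.9 to 159.6 in endothelial, 70.5 to 142 in fibro-adipogenic, 45.7 to 167 in pericyte, 26.0 to 132 in smooth muscle and 28.6 to 429 in satellite barcodes, where the satellite sums held only 7 to 101 UMIs of Ckm and Acta1. These ranges enclose that of the myofibre barcodes or overlap it, and the part of fibre RNA in the Atp2a1 level of other lineages was not tested.

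Atp2a2 (ENSMUSG00000029467; chromosome 5, 122453513 to 122502225, minus strand) encodes SERCA2, the pump of heart and slow fibres and, in a second splice form, of most other cells. In smooth muscle it stood at 621 and 885 CPM in frail 1 and 2, against 1244, 941 and 565 CPM in control 1 to 3, and the 2 groups overlapped. It was detected at a lower and even level in the other vessel and connective tissue sets. Fibro-adipogenic barcodes held 156 and 158 CPM in the frail and 165, 139 and 154 CPM in the control libraries, and pericyte barcodes held 177 and 161 CPM in the frail and 153, 147 and 139.9 CPM in the control libraries. Endothelial barcodes held 127 and 106 CPM in frail and 118, 108 and 116 CPM in control libraries. Smooth muscle exceeded pericytes by 2.66 (SE 0.46, adjusted p = 6.76e-05 by edgeR's quasi-likelihood test, where 40.9% of genes were called), endothelium by 2.93 (58.3% called) and fibro-adipogenic barcodes by 2.55 (57.6% called) on the log2 scale. Of the neighbours in that order, pericytes and endothelium differed by 0.27 (SE 0.44; 43.7% called) and pericytes and fibro-adipogenic barcodes by -0.11 (SE 0.44; 37.2% called), within their spread. For every 1000 UMIs of Ckm and Acta1 there were 1007 to 21824 of Atp2a2 in smooth muscle, against 0 to 2.31 in myofibre barcodes.

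In fibres Atp2a2 was close to 0 in all libraries but 1. It stood at 0 and 6.11 CPM in frail 1 and 2, against 13.8, 11.1 and 191 CPM in control 1 to 3, and the high value was that of control 3. There, 162 of 181 Atp2a2 UMIs came from 8 of the 250 myofibre barcodes, those in which the slow myosin gene Myh7 was detected. In these 8 barcodes Atp2a2 made 72.6% of the pump UMIs, and 90 of its UMIs came from 1 barcode. In the other 242 barcodes of control 3 its share was 0.260%. The summed level of 4 slow-fibre markers was 76.2 and 208 CPM in myofibre barcodes of frail 1 and 2 and 79.3, 21.7 and 1390.5 CPM in those of control 1 to 3, highest in the same library.

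Among the gated lineages, Atp2a3 (ENSMUSG00000020788; chromosome 11, 72961169 to 72993044, plus strand), which encodes SERCA3, was shared between smooth muscle and endothelium. Barcodes outside all gates held 47.2% to 68.1% of a library's Atp2a3 UMIs. The Ptprc barcodes described at the end held 11.1 to 35.96 CPM of Atp2a3 over the libraries. Smooth muscle held 48.3 and 84.2 CPM in the frail libraries and 147, 154 and 51.0 CPM in the controls, and endothelium held 77.0 and 83.6 CPM in the frail libraries and 53.2, 42.2 and 50.9 CPM in the controls. Fibro-adipogenic barcodes reached 5.37 CPM at most. In the joint fit smooth muscle exceeded endothelium by 0.55 on the log2 scale (SE 0.22, adjusted p = 0.0310, where 58.3% of genes were called), and endothelium exceeded fibro-adipogenic barcodes by 4.23 (SE 0.26, adjusted p = 7.88e-15, where 58.9% of genes were called), both by edgeR's quasi-likelihood test. Against the mean of the other non-fibre lineages, smooth muscle was higher by 3.39 for Atp2a3 and by 2.90 for Atp2a2.

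The inhibitors were divided in the same way. Sln (ENSMUSG00000042045; chromosome 9, 53850164 to 53854560, plus strand) encodes sarcolipin. Its myofibre level was higher than in the other lineages by 7.24 on the log2 scale (SE 0.48, adjusted p = 1.53e-11), and by 4.18 with the Ckm and Acta1 gate at 10%. Its levels by library and their thin support are given with the frail comparison below. Pln (ENSMUSG00000038583; chromosome 10, 53337667 to 53345987, plus strand), which encodes phospholamban, stood in smooth muscle at 326 and 363 CPM in the frail libraries and at 469.6, 517 and 292 CPM in the controls. All 5 values were far above those of the 5 other gated lineages, where Pln did not exceed 6.22 CPM. Smooth muscle was higher than the other non-fibre lineages by 7.50 (SE 0.13, adjusted p = 1.52e-35) and held 56.8% to 71.4% of all Pln UMIs of a library. For every 100 pump UMIs there were 32.8 to 48.6 of Pln in smooth muscle and 0.0662 to 2.86 of Sln in myofibre barcodes.

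Sln in smooth muscle shows how much 1 barcode can carry. It stood at 0 CPM in both frail libraries and at 2.12, 50.0 and 0.271 CPM in control 1 to 3, and the test called it higher in smooth muscle than in other non-fibre lineages (2.21, SE 0.69, adjusted p = 0.0107). Of the 206 Sln UMIs of control 2, 198 came from 1 barcode with 63337 UMIs, which also held 140 UMIs of Pln, 105 of Atp2a1 and 2 of Myh11, and 1.52% of its UMIs were from Ckm and Acta1. Without it the level of control 2 was 1.97 CPM. The smooth muscle set of control 2 also had the highest summed level of slow-fibre markers (591 CPM, against 6.13 to 11.0 in the other libraries) and of 4 cardiac markers (17.7 CPM, against at most 0.440), and the part of this barcode in them was not tested.

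The calsequestrins were likewise divided between fibre and vessel wall. Casq1 (ENSMUSG00000007122; chromosome 1, 172209894 to 172219868, minus strand), the main calcium buffer of fast fibres, stood in myofibre barcodes at 152 and 452 CPM in frail 1 and 2, against 451, 333 and 668 CPM in control 1 to 3. The frail 1 value rests on 2 UMIs. It exceeded the other lineages by 8.72 (SE 0.25, adjusted p = 1.75e-22). Casq2 (ENSMUSG00000027861; chromosome 3, 102086415 to 102146514, plus strand), the cardiac form, was carried by both mural cell sets. Smooth muscle held 197 and 369 CPM in the frail libraries and 345, 284 and 203 CPM in the controls, and pericytes held 173 and 320 CPM in the frail libraries and 159, 101 and 78.4 CPM in the controls.

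The order of Casq2 over lineages was smooth muscle, then pericytes, then a long step down. Smooth muscle exceeded pericytes by 1.02 on the log2 scale (SE 0.19, adjusted p = 3.79e-05), and pericytes exceeded endothelium by 6.47 (SE 0.28, adjusted p = 5.06e-20), both by edgeR's quasi-likelihood test. Myofibres over pericytes stood at -3.29 (SE 0.33, adjusted p = 5.70e-11 by the same test, where 67.0% of genes were called). Myofibre barcodes held 0 and 6.11 CPM in the frail libraries and 4.02, 7.02 and 3.16 CPM in the controls, so Casq2 was detectable there but close to 0. Endothelial and fibro-adipogenic barcodes, at 1.01 to 2.10 CPM, did not differ from each other beyond their spread (0.15, SE 0.36). Pericytes shared little else of the smooth muscle set. Pln in pericytes reached 3.06 CPM at most, Ryr2 had 0 UMIs there in all 5 libraries, and Atp2a3 stood at 7.24 to 15.3 CPM.

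The promoters of the 2 calsequestrin genes are shown because these paralogues were used by different cells, the first by fibres and the second by mural cells. Of the 10 genes, 7 were matched to a RefSeq promoter (GRCm38.p6), and each window ran from 250 to 51 bases before the start used for that promoter, which is 200 bases. That start can differ from the GENCODE start of the gene, as it does for Casq1. The capitals mark E-boxes (CANNTG, read on both strands as the motif is its own complement), the sites bound by basic helix-loop-helix factors such as the myogenic ones. The Casq1 window is chr1:172219946-172220145 on the minus strand and the Casq2 window is chr3:102086165-102086364 on the plus strand.
Casq1: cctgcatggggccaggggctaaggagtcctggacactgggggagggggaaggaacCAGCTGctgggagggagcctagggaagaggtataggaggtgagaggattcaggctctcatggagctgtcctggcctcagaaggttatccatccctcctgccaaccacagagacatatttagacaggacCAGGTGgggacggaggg
Casq2: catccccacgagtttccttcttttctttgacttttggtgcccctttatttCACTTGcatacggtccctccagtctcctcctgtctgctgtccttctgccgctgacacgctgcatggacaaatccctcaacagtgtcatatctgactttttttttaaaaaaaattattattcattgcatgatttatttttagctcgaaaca
Casq1 held 2 E-boxes and Casq2 held 1, and an E-box was present in 59.0% of the 32851 promoter windows of the same length. Ryr2 held 2 and Pln 1, and the windows of Atp2a1, Atp2a3 and Ryr1 held none. The MEF2 motif CTANNNNTAG, searched on both strands and present in 2.58% of all windows, and the CArG box, present in 1.16%, were in none of the 7 windows. A match is a description of letters and no evidence of binding.

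Of the release channels, Ryr1 (ENSMUSG00000030592; chromosome 7, 29003344 to 29125179, minus strand), the skeletal form, stood in myofibre barcodes at 0 and 122 CPM in frail 1 and 2, against 185, 206 and 103 CPM in control 1 to 3. The 0 of frail 1 allows up to 3 UMIs in 13127, and the other 4 libraries overlapped. It was higher than in the other lineages by 6.47 (SE 0.22, adjusted p = 5.69e-21). Myofibre barcodes held 0% to 52.5% of a library's Ryr1 UMIs (median 22.6%), against 22.9% to 82.8% of its Atp2a1 UMIs (median 68.3%), and 40.7% to 82.0% of the Ryr1 UMIs were in barcodes outside all gates. Pericytes held 3.76 and 6.77 CPM in the frail libraries and 12.8, 12.2 and 10.3 CPM in the controls, more than endothelium by 1.96 on the log2 scale (SE 0.49, adjusted p = 0.00167, where 43.7% of genes were called). The macrophage markers given above for the pericyte set summed to 222 to 629 CPM in the endothelial set.

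Ryr2 (ENSMUSG00000021313; chromosome 13, 11553102 to 12106945, minus strand), the cardiac form, was a smooth muscle gene here. It stood at 56.1 and 44.0 CPM in frail 1 and 2, against 41.5, 29.8 and 55.9 CPM in control 1 to 3, and in no other lineage did it exceed 0.364 CPM. The step over the other non-fibre lineages was 9.22 (SE 0.28, adjusted p = 1.10e-23), and smooth muscle held 52.7% to 73.2% of a library's Ryr2 UMIs. In fibres 1 UMI was found, in control 2. Ryr3 (ENSMUSG00000057378; chromosome 2, 112631355 to 113217096, minus strand), a form of low and scattered expression, stood in smooth muscle at 7.63 and 6.47 CPM in the frail libraries and at 4.45, 1.21 and 8.13 CPM in the controls. In satellite barcodes Ryr3 had 5 and 0 UMIs in frail 1 and 2, against 0, 2 and 5 UMIs in control 1 to 3. These 12 UMIs were 12 of 26 ryanodine receptor UMIs of the satellite set, and satellite barcodes exceeded fibro-adipogenic ones (-5.16 for fibro-adipogenic over satellite, SE 0.79, adjusted p = 2.30e-06 by edgeR's quasi-likelihood test, where 33.9% of genes were called). Against smooth muscle no difference beyond the spread was found (0.17, SE 0.53, smooth muscle over satellite, where 43.0% of genes were called). In fibres Ryr3 had 0 UMIs in every library.

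Isoform use was the share of a gene among the UMIs of its family in the same barcodes. Since each molecule is tagged at its 3′ end, counts were not divided by transcript length. In myofibre barcodes Atp2a1 made 100% and 99.9% of the pump UMIs in frail 1 and 2, against 99.8%, 99.8% and 97.6% in control 1 to 3, where the frail 1 value has a 95% Wilson interval of 94.8% to 100%. Both frail values were above every control value, by 0.896 percentage points on average, with p = 0.2 in the exact two-sided permutation test. Without control 3, which held 8 barcodes with Myh7 detected, against 1 in control 1 and 0 in the other libraries, the difference was 0.162 points. Casq1 made 97.9% to 100% of calsequestrin UMIs in all 5 libraries (exact permutation p = 0.6), and Ryr1 made 1142 of the 1143 ryanodine receptor UMIs.

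Sln made 98.3% to 98.9% of the inhibitor UMIs in the control fibres, against 2 of 2 and 1 of 2 UMIs in frail 1 and 2, which is too few for a share (exact permutation p = 0.8). In smooth muscle the pump was 80.0% to 92.7% Atp2a2 and 7.20% to 13.1% Atp2a3, the calsequestrin 96.1% to 99.8% Casq2, the ryanodine receptor 83.7% to 87.8% Ryr2 and 3.40% to 12.4% Ryr3, and the inhibitor 91.2% to 100% Pln. Among the gated lineages endothelium had the largest share of Atp2a3, 19.3% to 39.4% of pump UMIs, beside 49.4% to 60.6% of Atp2a2. The rest was Atp2a1, at 2.62% and 10.8% in frail 1 and 2, against 19.8%, 31.2% and 22.6% in control 1 to 3, so the shares of Atp2a2 and Atp2a3 move with it. The Ptprc barcodes described at the end also used Atp2a3, with 9 and 36 UMIs in the frail and 27, 12 and 48 in the control libraries. Atp2a2 had 65 and 120 UMIs there in the frail and 202, 93 and 99 in the control libraries.

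**Figure D2:**
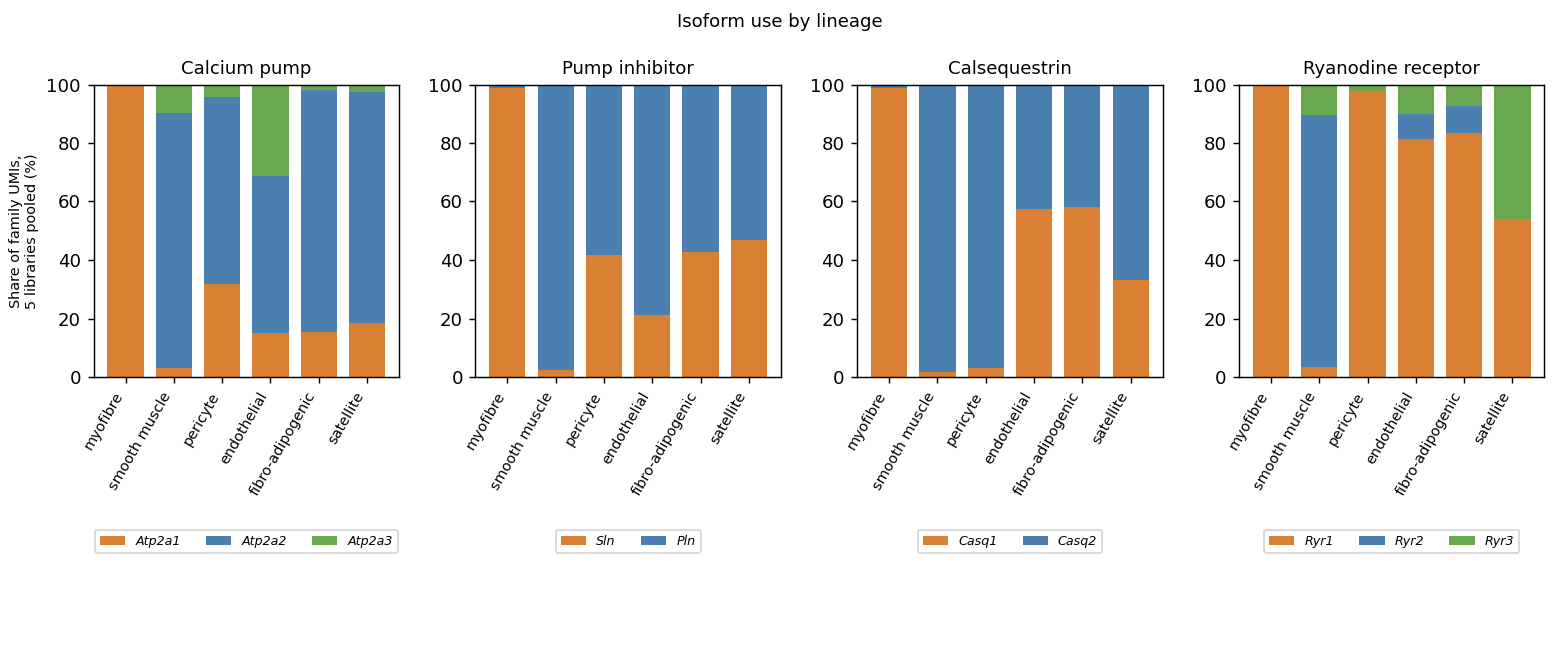
Share of each gene among the UMIs of its family (%, vertical axis, starting at 0) in 6 lineages, with the 5 libraries pooled and no error bars. Myofibre bars are nearly all Atp2a1, Sln, Casq1 and Ryr1, smooth muscle bars are mostly Atp2a2, Pln, Casq2 and Ryr2, and the inhibitor bars of the 4 lineages other than these rest on 12 to 154 UMIs.

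The families also differed in total. SERCA UMIs summed to 5333 to 9224 CPM in myofibre barcodes, 649 to 1433 in smooth muscle, 209.7 to 218 in endothelium, 187 to 355 in pericytes, 161 to 214 in fibro-adipogenic and 75.2 to 156 in satellite barcodes over the 5 libraries. Calsequestrin transcripts were high relative to pump transcripts in mural cells. For every 100 pump UMIs there were 31.9 to 170.3 calsequestrin UMIs in pericytes, 24.3 to 38.0 in smooth muscle and 2.86 to 8.45 in myofibre barcodes. Atp2a1 made 8.41% and 7.21% of the pericyte pump UMIs in frail 1 and 2, against 12.3%, 54.3% and 32.6% in control 1 to 3. The pericyte ratio moves with it.

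The plot of levels against the Ckm and Acta1 share gives the values on both sides of the gate. With the 5 libraries pooled, Atp2a1 stood at 15.3 CPM in the 46596 barcodes with under 0.1% of these UMIs, 3869 CPM at 4% to 5% (125 barcodes, just outside the gate), 4379.5 CPM at 5% to 6% (161 barcodes, just inside) and 9921 CPM at 12% or more (121 barcodes). Casq1 followed with 156, 197 and 596 CPM in these last 3 bins. Ryr1 was 188, 227 and 175 CPM, level over the same range. Atp2a2 ran the other way between the ends, at 199.7 CPM under 0.1% and 74.8, 71.8 and 10.2 CPM in the last 3. Between them its course was uneven, with 229 CPM at 0.5% to 1% (111 barcodes). For these 4 genes the bins next to the gate held similar levels.

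**Figure D3:**
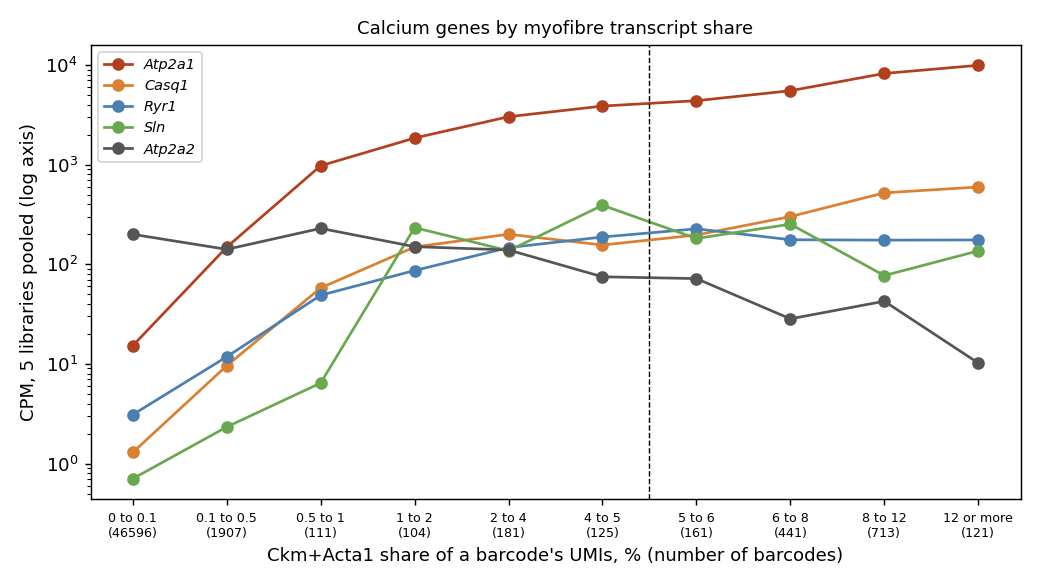
CPM of 5 genes (log axis) in bins of the Ckm and Acta1 share of a barcode's UMIs (%), with the 5 libraries pooled and the number of barcodes under each bin; the dashed line marks the 5% gate. Atp2a1 and Ryr1 are higher at larger shares up to the gate. Casq1 is higher up to 200 CPM at 2% to 4% and stands at 156 CPM at 4% to 5%. Atp2a2 moves unevenly, with 229 CPM at 0.5% to 1% and 74.8 CPM at 4% to 5%, and Sln moves unevenly from 391 to 181 CPM across the gate.

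Within fibres the levels were set side by side by myosin type, with no test and no share of all genes with a common order. In control libraries, barcodes with at least 3 myosin UMIs were split by the most abundant of Myh1, Myh2, Myh4 and Myh7, which gave 53, 174 and 54 Myh1-led and 227, 471 and 92 Myh4-led barcodes in control 1 to 3. Casq1 was lower in the Myh1-led barcodes of all 3 libraries, at 272, 247 and 599.9 CPM, against 524, 374 and 769.9 CPM in the Myh4-led ones. Atp2a1 had the same order, at 4483, 6457 and 7591 CPM in Myh1-led barcodes, against 8034, 6929.9 and 8219 CPM in Myh4-led ones. Sln ran the other way, at 431, 256 and 246 CPM in Myh1-led and 70.7, 109 and 60.4 CPM in Myh4-led barcodes. Without the barcode that held the most Sln in each class these became 88.8, 215 and 40.7 CPM, against 51.7, 101 and 39.5 CPM. Ryr1 had no common order, at 138, 235 and 112 CPM, against 209, 203 and 106 CPM.

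Over the 30 sums the 5 genes most like each pump, by Pearson correlation of log2 CPM with a prior count of 2 among 13633 genes, were taken. For Atp2a1 they were Tnnt3, Mylpf, Ckm, Tnni2 and Acta1 (r = 0.976 to 0.982), which are fast-fibre contractile genes and the 2 gate genes. For Atp2a2 they were Flna, Lpp, Ppp1r12a, Lbh and Rock1 (r = 0.915 to 0.935), among them a filamin gene and Ppp1r12a, which encodes a subunit of myosin phosphatase. For Atp2a3 they included Tgm2, Tinagl1, Kcna5 and Trp53i11 (r = 0.898 to 0.929), of which Kcna5 encodes a voltage-gated potassium channel. The sums share libraries and gates, so these correlations describe the lineages only.

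The other calcium handling genes of a list of 43 (42 were found) divided in the same manner. In myofibre barcodes 31 of 39 tested were called, 26 higher and 5 lower than in other lineages, beside 28.3% higher and 36.6% lower among all genes, with a median of 1.78 on the log2 scale, against -0.44 for all genes. The 6 with the smallest p were Sypl2 (8.04), Tmem38a (6.36; a counter-ion channel of the reticulum), Cacnb1 (6.52), Camk2b (5.97), Stac3 (6.87) and Cacna1s (7.69). Cacna1s and Cacnb1 encode subunits of the voltage sensor that opens Ryr1, and Stac3 its adaptor. The 5 lower genes were Calm2, Itpr1, Itpr2, Atp2b1 and Atp2b4, that is a calmodulin gene, 2 IP3 receptors and 2 plasma membrane pumps. In smooth muscle 27 of 39 were called, 20 higher and 7 lower, beside 27.6% higher and 25.5% lower among all genes, with a median of 0.78, against -0.01 for all genes. Tmem38b (3.13), Camk2g (3.10), Jph2 (5.16), Hrc (4.87), Slc8a2 (6.74) and Slc8a1 (5.07) had the smallest p. Tmem38b is the paralogue of Tmem38a, Jph2 encodes a junctophilin that ties the store to the cell membrane, Hrc a calcium-binding protein of the store, and the Slc8a genes sodium-calcium exchangers.

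The frail comparison asks whether these genes differ between frail and control muscle of the same age. Over all retained barcodes each of the 4 fibre genes had both frail values under every control value, and the test called none of them. Atp2a1 stood at 4.52 and 32.7 CPM in frail 1 and 2, against 222, 438 and 136 CPM in control 1 to 3 (log2 -3.91, SE 1.05). Casq1 stood at 0.872 and 1.90 CPM in the frail libraries and at 14.6, 22.5 and 10.9 CPM in the controls (log2 -3.58, SE 0.49). Neither pair of groups overlapped, and the frail values were the lowest of the 5.

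Ryr1 stood at 1.64 and 2.99 CPM in frail 1 and 2, against 9.61, 19.3 and 4.92 CPM in control 1 to 3 (log2 -2.34, SE 0.65), and Sln at 0.104 and 0.296 CPM in the frail libraries and at 6.24, 18.4 and 1.86 CPM in the controls (log2 -5.52, SE 1.27). Their adjusted p-values by edgeR's quasi-likelihood test were 0.407 for Casq1, 0.570 for Sln, 0.652 for Ryr1 and 0.674 for Atp2a1. Of all 19989 genes tested, edgeR called 0 (0.0%), with 1119 (5.6%) at an unadjusted p under 0.05, and DESeq2 called 288 (1.44%). Frail libraries lay below every control for 10.5% of genes. DESeq2 called all 4 fibre genes, with adjusted p = 0.0149 for Atp2a1, 0.00101 for Sln, 1.35e-12 for Casq1 and 0.00533 for Ryr1.

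The gate genes moved with them. Ckm and Acta1 together stood at 41.6 and 323 CPM in frail 1 and 2, against 2621, 5612 and 1264 CPM in control 1 to 3. In such sums fewer fibre barcodes and less RNA per fibre cannot be told apart. With the myofibre barcodes taken out, the log2 differences were -3.32 for Atp2a1, -4.73 for Sln, -2.42 for Casq1 and -1.53 for Ryr1, none of them called. Ckm and Acta1 there were still 28.4 and 86.4 CPM in the frail and 445, 1285 and 377 CPM in the control libraries.

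The 6 genes of the vessel wall and other lineages did not show a difference beyond their spread in the same sums. Atp2a2 held 207 and 185 CPM in the frail and 244, 181 and 169 CPM in the control libraries (log2 -0.04, SE 0.23), and Casq2 held 40.7 and 38.2 CPM in the frail and 50.2, 41.2 and 24.1 CPM in the control libraries (0.01, SE 0.32). Pln was at 46.6 and 27.8 CPM in frail and 47.5, 43.0 and 21.1 CPM in control libraries (-0.02, SE 0.42). The remaining differences were 0.38 (SE 0.33) for Atp2a3, 0.66 (SE 0.39) for Ryr2 and 0.86 (SE 0.59) for Ryr3, with adjusted p of 0.935 to 1.00 for all 6 by edgeR's quasi-likelihood test. A p above the threshold does not show that the levels were alike.

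**Figure D4:**
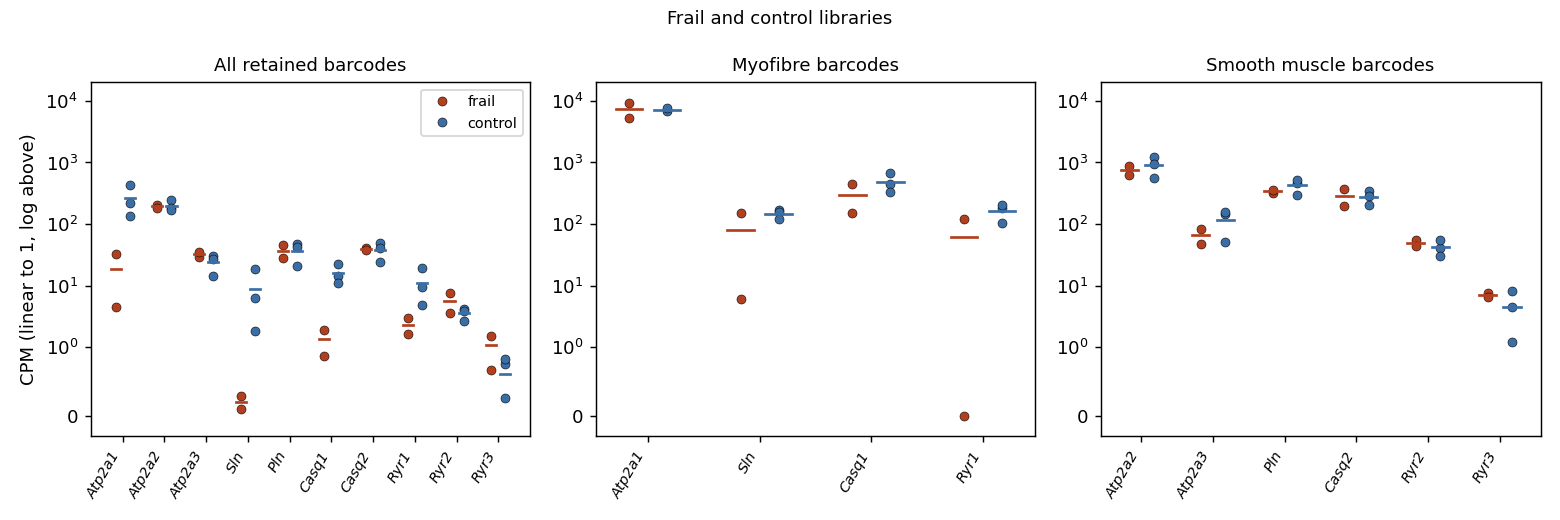
CPM per library (points) and group mean (bars) on an axis linear from 0 to 1 and logarithmic above, with frail (red) left of control (blue), for all retained, myofibre and smooth muscle barcodes. Atp2a1, Sln, Casq1 and Ryr1 do not overlap between the groups over all retained barcodes; inside the myofibre set Atp2a1 overlaps, with means of 7272 and 7180.0 CPM in frail and control libraries.

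Inside the myofibre barcodes, where the number of fibres no longer enters, Atp2a1 averaged 7272 ± 2743 CPM in frail and 7180.0 ± 500.0 CPM in control libraries (SD, n = 2 and 3), a log2 difference of -0.18 (SE 0.53, adjusted p = 0.995). The groups overlapped, and so did Casq1 (log2 -0.49, SE 0.45, adjusted p = 0.943) and Ryr1 (-0.73, SE 0.49, adjusted p = 0.850). Sln fell, by 3.04 on the log2 scale (SE 0.74, adjusted p = 0.0288 by edgeR's quasi-likelihood test). It stood at 152 CPM in frail 1, which is 2 UMIs, at 6.11 CPM in frail 2, which is 1 UMI, and at 171, 155 and 119 CPM in control 1 to 3, which are 298, 528 and 113 UMIs. Frail 2 is far below the controls, and frail 1 lies among them. Of 5543 genes, 8 were called (0.144%), and 29.9% had both frail libraries below every control.

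The Sln call rested on few barcodes and was lost without any 1 of 4 libraries. Against the pooled controls (154 CPM) the ratio was 0.990 for frail 1 (95% interval 0.120 to 3.59), 0.0397 for frail 2 (0.00100 to 0.222) and 0.110 for both (0.0227 to 0.323), where the intervals cover counting error only. Among control UMIs, 173 of 298 in control 1 and 66 of 113 in control 3 came from 1 barcode each, and without the top barcode the controls held 76.5, 142 and 52.0 CPM. The adjusted p of Sln by edgeR's quasi-likelihood test came to 0.712 when frail 2 was left out and to 0.117 for frail 1, 0.266 for control 1 and 0.0989 for control 2, while the call held when control 3 was omitted (0.0345). It was 0.0901 with no low-count filter, 0.172 at a mitochondrial limit of 5%, 0.508 without barcodes above 3 times the median UMIs, 1.00 with a replicate block and 1.00 by DESeq2. Of the 10 genes 5 passed the filter on low counts here. The fitted difference of Atp2a2 was -3.56 (SE 5.04). Without the barcodes in which Myh7 was detected its level was 0 and 6.11 CPM in frail 1 and 2, against 13.8, 11.1 and 20.6 CPM in control 1 to 3, and no fit was made without them.

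The other calcium handling genes of the list gave 32 tested in myofibre barcodes and 0 called by edgeR, with 0 higher (1.64% of all genes) and 3 lower (6.04% of all genes) at an unadjusted p under 0.05. The smallest p was that of Mrln, whose product myoregulin inhibits SERCA in fibres, at 0 and 30.5 CPM in frail 1 and 2, against 107, 158 and 73.8 CPM in control 1 to 3 (log2 -2.08, adjusted p = 0.392). Pvalb, the cytosolic calcium buffer parvalbumin, was at 1904 and 2584 CPM in the frail libraries and 5531, 4444 and 2299.9 CPM in the controls (-1.09, adjusted p = 0.595), with control 3 between the frail values. Itpr1, Jph2 and Orai1 came next, with adjusted p of 0.645 to 0.818. Over all retained barcodes 0 of 40 were called, with 1 higher (2.05% of all genes) and 13 lower (3.55% of all genes) at an unadjusted p under 0.05. Sypl2 (log2 -4.01), Srl (-2.32), Jsrp1 (-2.53), Jph1 (-1.79), Stac3 (-2.00) and Camk2a (-1.49) had the smallest p there, with adjusted p of 0.407 to 0.607, and the fibre transcripts given above moved with them.

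In smooth muscle barcodes, the other main user of these families, no gene of the 10 was called, where edgeR called 6 of 12392 genes (0.0484%; 4.3% at an unadjusted p under 0.05) and DESeq2 called 63 (0.508%). Atp2a2 averaged 753 ± 186 CPM in frail and 917 ± 340.0 CPM in control libraries (log2 -0.24, SE 0.33). The log2 differences of Pln (-0.25, SE 0.27), Casq2 (0.07, SE 0.31), Ryr2 (0.32, SE 0.27) and Ryr3 (0.71, SE 0.60) were small beside their errors, and Atp2a3 (-0.79, SE 0.50) overlapped through control 3; the adjusted p was 0.999 for these 6 genes by edgeR's quasi-likelihood test. Atp2a1 stood at 0.880 and 3.75 CPM in frail 1 and 2, against 42.8, 80.7 and 33.4 CPM in control 1 to 3 (log2 -4.71, SE 0.66, adjusted p = 0.148), with no overlap, where 10.2% of genes had both frail libraries below every control. Ckm and Acta1 moved with it in the same barcodes, at 33.9 and 40.5 CPM in the frail and 599.6, 935 and 252 CPM in the control libraries. DESeq2 called Atp2a1 (adjusted p = 1.80e-13), and edgeR called it without control 2 (adjusted p = 0.0252), without control 3 (0.0151), without high-UMI barcodes (0.0286), with a gate of 3 UMIs (0.00844) and with no low-count filter (6.21e-19). Casq1 likewise lay below every control, at 2.05 and 0.681 CPM in the frail and 3.39, 11.6 and 5.42 CPM in the control libraries (-2.05, SE 0.68, adjusted p = 0.999). In the list of other calcium genes 0 of 30 were called, with Pvalb first (-5.35, adjusted p = 0.108), followed by Trdn, Jsrp1, Camk2g, Slc8a1 and Srl.

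In plain CPM both frail libraries stood above every control for Casq2 and Atp2a2 in pericytes and for Atp2a3 in endothelium, with no call. The shares of genes with that order were counted on CPM normalised by TMM. Casq2 in pericytes was at 173 and 320 CPM in frail 1 and 2, against 159, 101 and 78.4 CPM in control 1 to 3 (log2 1.07, SE 0.34, unadjusted p = 0.0119, adjusted p = 0.328 by edgeR's quasi-likelihood test), where 14.4% of genes had that order. The summed level of 6 pericyte markers moved in the same direction, at 2635 and 5660 CPM in the frail and 2212, 1903 and 1321 CPM in the control libraries. So did that of 6 smooth muscle markers in these barcodes, at 4069 and 2270 CPM in the frail and 1866, 1524 and 1120 CPM in the control libraries. The macrophage and fibro-adipogenic sums overlapped between the groups. The part of these sums in the result was not tested. Atp2a2 in pericytes, at the levels given above, differed by 0.16 on the log2 scale (SE 0.23, adjusted p = 0.857 by edgeR's quasi-likelihood test). In CPM normalised by TMM its groups overlapped, at 190 and 153 in frail 1 and 2, against 161, 151 and 149.5 in control 1 to 3. Atp2a3 in endothelium was at 77.0 and 83.6 CPM in the frail and 53.2, 42.2 and 50.9 CPM in the control libraries (0.71, SE 0.18, unadjusted p = 0.00268, adjusted p = 0.771), where 7.55% of genes had that order. Atp2a1 went the other way in both sets, below every control and not called. In CPM normalised by TMM, pericytes held 18.2 and 12.9 in frail 1 and 2, against 24.1, 199 and 76.0 in control 1 to 3. Endothelium held 5.77 and 21.8 in the frail and 43.2, 69.8 and 47.5 in the control libraries. Of all genes, 14.6% in pericytes and 7.45% in endothelium had both frail libraries below every control. The part of fibre RNA in this was not tested. In both sets edgeR called 0 genes (0.0%), of 9138 in pericytes (1000 or 10.9% at an unadjusted p under 0.05, 69 or 0.755% by DESeq2) and of 13229 in endothelium (427 or 3.23%, and 18 or 0.136%).

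Fibro-adipogenic and satellite barcodes added no call among the 10. Of 14538 genes in the fibro-adipogenic set 1 was called (0.00688%), and of 6413 in the satellite set 3 (0.0468%). Atp2a2, the main pump of both, differed by 0.02 (SE 0.17) in fibro-adipogenic and by -0.21 (SE 0.32) in satellite barcodes on the log2 scale. In the satellite set it stood at 63.7 and 88.8 CPM in the frail and 72.5, 62.2 and 110.3 CPM in the control libraries, which overlap. Atp2a1 in fibro-adipogenic barcodes was at 2.46 and 8.06 CPM in the frail and 35.0, 69.6 and 36.4 CPM in the control libraries (-3.18, adjusted p = 0.497), beside 17.3 and 60.3 CPM in frail and 294, 987 and 268 CPM in control libraries of Ckm and Acta1. Casq1 (-2.66, adjusted p = 0.257) and Ryr1 (-2.27, adjusted p = 0.874), both by edgeR's quasi-likelihood test, were also below every control there. Of all genes tested in this set, 9.87% had both frail libraries below every control. Of the other calcium handling genes 0 of 36 were called in fibro-adipogenic, 0 of 33 in endothelial, 0 of 22 in pericyte and 0 of 20 in satellite barcodes.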

How the data were processed

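The authors deposited 1 matrix of UMI counts per library (2 frail, 3 control). Per the file headers the counts come from Cell Ranger 7.0.0, and Seurat 4.1.2 and the build GRCm38 are named in the submitters' processing notes. No source used here gives the annotation, the treatment of intronic reads or the barcode filter. Gene positions came from GENCODE vM21, in which 52081 of 55357 gene identifiers were matched.

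Counts were summed per library over each set of barcodes; no doublet caller was run, and high-UMI barcodes were left out as an alternative. Sums were tested with edgeR 4.0.16 (R 4.3.3; quasi-likelihood, robust, TMM, filterByExpr, Benjamini-Hochberg at 0.05), with DESeq2 1.42.0 as an alternative; the frail effects of 2 lineages were compared with limma 3.58.1. The edgeR frail fits, the myofibre lineage contrast and the comparison of frail effects were tried on simulated counts, the other tests were not. The myofibre frail fit recovered 4.3% of genes changed 2-fold and 30.1% of those changed 4-fold. Over all retained barcodes these were 32.3% and 95.2%. A gene not called in myofibre barcodes may therefore still differ. The simulated counts gave every gene the same fixed spread between libraries, which was not matched to these data. The recovered shares may therefore not hold for the genes described here, in any set of barcodes. Log2 fold changes come from the fits, CPM and shares from plain sums. Wilson and Poisson intervals are at 95% and, like the floor of 3 counts, cover counting error only. P-values of the frail comparisons measure the spread between mice. Those between lineages, fitted with the library as a block, measure the spread of lineage differences over the libraries.

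The named genes are the 10 members and, of the calcium list, those with the smallest 6 p-values, except items not reported here. Members, lists and tests were chosen with earlier results of these data known.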

Additional observations from a re-analysis of the deposited data

Results flagged for a closer look

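The frail effect (log2, frail over control) was compared between myofibre and smooth muscle barcodes. The limma-trend test of that difference called 0 of 5361 genes (0.0%; 572 at an unadjusted p under 0.05), with Atp2a1 at 3.88 (myofibre minus smooth muscle, adjusted p = 0.192). An edgeR interaction fit, which was added after the data were seen, called 31 genes (0.578%), 30 of them with a frail effect lower in smooth muscle than in myofibre barcodes. On simulated counts limma-trend recovered 0% of 70 genes changed 2-fold and 0% of 105 changed 4-fold, and the edgeR fit 0% and 3.81%, of 5240 genes tested, so neither count says how many genes differ. Of the calcium genes, 3 of the 10 genes described and 24 of the wider list could be tested, and edgeR called 3 in all, in the direction of the 30. They were Atp2a1 (4.21, adjusted p = 3.59e-06), Pvalb, the parvalbumin gene (3.92, adjusted p = 4.54e-05), and Trdn, whose product triadin links calsequestrin to the ryanodine receptor (2.69, adjusted p = 0.0481).

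In smooth muscle all 3 were near 0 in the frail libraries. Trdn stood there at 0.147 and 2.38 CPM in frail 1 and 2, against 6.78, 26.7 and 3.25 CPM in control 1 to 3, and Pvalb at 0.880 and 1.02 CPM in the frail and 50.6, 54.3 and 17.4 CPM in the control libraries. In myofibre barcodes the groups overlapped for Trdn, at 533 and 1014 CPM in the frail and 854, 703 and 989 CPM in the control libraries. Ckm and Acta1 in the same smooth muscle barcodes were at 33.9 and 40.5 CPM in the frail and 599.6, 935 and 252 CPM in the control libraries, and their part in these differences was not tested.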

How the results depend on the processing

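Most values of the 10 genes kept their direction and call. Of the recomputed values of single genes, 449 kept both, 18 gained a call, 9 lost one and 30 changed sign. The limits are 2 frail mice, 9 myofibre barcodes in frail 1, and the unequal number of fibre barcodes, so that fold changes inside fibres rest on few molecules. A myofibre frail comparison with the gate at 10% was not run, since frail 1 then holds 0 barcodes. The cause of the changes below was not tested.

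The counts of genes called, frail against control, moved as follows. Over all retained barcodes (0) there were 288 by DESeq2 and 15 with no low-count filter. In myofibre barcodes (8) there were 2 by DESeq2, 17 with plain library sizes, 3 without high-UMI barcodes and 66 with the gate at 2%, and 0 to 9 with 1 library left out. In smooth muscle (6) there were 63 by DESeq2, 3 with plain library sizes, 169 with no filter, 0 at a mitochondrial limit of 5%, 10 without high-UMI barcodes, 0 with a gate of 1 UMI and 15 with 3 UMIs, and 0 to 38 with 1 library left out. In pericytes (0) there were 69 by DESeq2, 396 with no filter and 2 with a gate of 3 UMIs, and 0 to 3 with 1 library left out. In endothelium (0) there were 18 by DESeq2 and 94 with no filter, and 0 to 14 with 1 library left out. In fibro-adipogenic barcodes (1) there were 70 by DESeq2, 250 with no filter, 2 at mitochondrial limits of 5% and 20% and with none, 3 without high-UMI barcodes and 2 with a gate of 3 UMIs, and 0 to 3 with 1 library left out. In satellite barcodes (3) there were 9 by DESeq2, 5 with plain library sizes, 36 with no filter and 8 with a gate of 1 UMI, and 1 to 70 with 1 library left out. The comparison of frail effects between myofibre and smooth muscle (0) gave 31 by edgeR, and 0 to 5669 with 1 library left out, with 1204 without frail 1 and 5669 without frail 2.

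The labels do not pair the mice by number, and same-numbered mice deviated together at r = -0.01 and 0.17. A replicate block gave 366 calls over all retained, 2 in myofibre, 139 in smooth muscle, 16 in pericyte, 10 in endothelial, 48 in fibro-adipogenic and 43 in satellite barcodes. With it Sln, Casq1 and Ryr1 were called over all retained barcodes, Sln was not in myofibre barcodes (adjusted p = 1.00), and Atp2a3 was in smooth muscle (-1.19, adjusted p = 0.0150).

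Between lineages, plain library sizes moved the median of all genes for myofibre over other lineages to -1.73, against -0.44, and the calls to 1857 higher and 9485 lower, against 3863 and 4993; the calls of the 4 fibre genes held.

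Small differences changed sign. Over all retained barcodes Casq2 was at -0.26 with the replicate block, -0.29 at a mitochondrial limit of 5%, -0.0064 at 20%, -0.0062 with none, -0.097 without high-UMI barcodes and -0.021 without myofibre barcodes. Atp2a1 in myofibre barcodes was at 0.032 with plain library sizes. Casq2 in smooth muscle was at -0.17 with the block and -0.098 at a mitochondrial limit of 5%, Atp2a2 in pericytes at -0.093 with a gate of 1 UMI, and Atp2a2 in satellite barcodes at 0.087 with the block. With 1 library left out, the range over all retained barcodes was -0.17 to 0.15 for Atp2a2, -0.50 to 0.34 for Pln, -0.26 to 0.25 for Casq2 and -0.051 to 1.13 for Ryr2. It was -1.47 to 0.41 for Atp2a1 in myofibre barcodes, -0.50 to 0.072 for Atp2a2 and -0.39 to 0.42 for Casq2 in smooth muscle. For Atp2a2 it was -0.0072 to 0.32 in pericyte, -0.18 to 0.22 in endothelial, -0.030 to 0.092 in fibro-adipogenic and -0.52 to 0.13 in satellite barcodes. The difference of myofibre isoform shares, in percentage points, ranged over -0.19 to 1.14 for Casq1, 0 to 0.071 for Ryr1 and -48.6 to 1.40 for Sln.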

Other observations

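Ryr1 UMIs were also found in barcodes of the immune lineage. Barcodes under the fibre gate with at least 2 UMIs of Ptprc, the pan-leukocyte gene, and none of the other gate genes numbered 107 and 177 in frail 1 and 2, against 265, 143 and 204 in control 1 to 3, a set that was defined after the values were seen. Ryr1 stood there at 16.0 and 24.6 CPM in the frail libraries and at 21.4, 14.4 and 15.0 CPM in the controls, and the groups overlapped. For every 1000 UMIs of Ckm and Acta1 there were 667 and 655 of Ryr1 in the frail and 50.5, 14.0 and 75.2 in the control libraries, against 0 to 2.31 in myofibre barcodes. Ryr2 and Ryr3 had at most 1 UMI each in any library of this set.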
